A study of Mus musculus with 12 samples.

Results

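The cytosolic ribosomal protein genes were taken from a table of 23235 gene symbols by a rule on symbols: Rps, Rpl or Rplp and a number, with 1 optional letter a, l, x or y and 1 optional digit, plus Rpsa and Fau, and no symbol marked as a pseudogene. The rule gave 85 genes, 34 of the small and 51 of the large ribosomal subunit. All 85 were found in the GENCODE vM21 annotation, 2 of them under another symbol (Rps3a as Rps3a1, and Rps4y2 as Rps4l, which GENCODE lists as a transcribed processed pseudogene). Of the 85, 84 reached a mean of at least 1 FPKM over the groups and were compared, among 11913 such genes. FPKM is a read density per length of transcript and per size of library, so levels of different genes can be compared only roughly. They depend on the transcript length assumed and on how reads shared between alike genes were counted, neither of which is known here. This limit holds for the order of levels and for the paralog percentages below.

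The libraries were made from mouse oocytes of 4 groups, WT and Mtr4-null at day 14, which the labels call growing oocytes, and WT and Mtr4-null at day 21. MTR4 is a helicase of the nucleus that unwinds RNA and hands it to the exosome for degradation. The labels give 3 samples per group, each of 10 oocytes, lysed whole and primed with oligo-dT in the Smart-seq2 protocol, which favours polyadenylated RNA. The deposited table gives 1 mean per group, so no spread between samples can be computed, there is no replicate check and no difference below was tested. By their decimals, the values of Mtr4-null day 21 are means of 2 libraries and those of the other groups means of 3. The labels do not name the allele, the promoter behind the deletion or the animals each sample came from. Equal input of oocytes is no equal input of RNA, and a lower FPKM cannot be told apart from more RNA of other genes in the same oocytes. A gene was counted as higher or lower where its log2(FPKM + 1) differed by at least 1, a 2-fold rule of size.

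The targeted gene, Skiv2l2, stood at 27.6 FPKM in WT and 1.57 in Mtr4-null oocytes at day 14, and at 26.3 and 3.86 at day 21. All 10 oocyte markers examined were at 1 FPKM or more in each group. The 10 granulosa cell markers summed to between 25.7 and 38.3 FPKM in a group, 5 of them at 1 FPKM or more. The 12 markers of theca, stroma, endothelium and blood summed to between 3.61 and 22.3 FPKM in a group, with 4 to 6 listed at 0. Most of that sum was Pecam1, an endothelial marker, at 13.2, 9.82, 20.7 and 2.13 FPKM (WT then Mtr4-null at day 14, WT then Mtr4-null at day 21), Star reached 1.25 FPKM in Mtr4-null oocytes at day 14, and the blood markers Hbb-b1 and Hba-a1 were listed at 0 in every group. The part of other cells in the differences below was not tested. The summed oocyte markers were at 21606, 21417, 16051 and 13218 FPKM in the order WT then Mtr4-null at day 14, followed by WT then Mtr4-null at day 21, an order kept below wherever 4 values stand together.

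A ribosome is built from ribosomal RNAs and ribosomal proteins in fixed proportions, the small subunit decoding the mRNA and the large subunit joining amino acids. Ribosomal protein mRNAs commonly begin with a C followed by a run of pyrimidines, the 5′ terminal oligopyrimidine (TOP) motif, through which mTOR signalling and the protein LARP1 set their translation and stability. Many of these genes also carry small nucleolar RNAs in their introns, which guide the modification of ribosomal RNA. Growing oocytes accumulate ribosomes and stable mRNA, and translation of TOP mRNAs is regulated as the oocyte matures.

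The sequence around the annotated transcription start was read for the 64 members that had an entry in the RefSeq table (build GRCm38.p6, 76 start windows). In 36 of the 64 members, 56.2% of them, a C followed by at least 7 pyrimidines lay between 40 bases before and 20 bases after the start on the gene's strand, as against 21.5% of 26961 other genes and 19.0% of all 32851 windows. The windows below show 4 members with long or central tracts, then the 4 members with a higher level in day 21 Mtr4-null oocytes by the largest margins, in whose windows no tract was found. Each is written 5′ to 3′ on the gene's strand, with the start after base 40 and the longest tract in capitals.

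Rpl7a, chr2:26910767-26910826, plus strand: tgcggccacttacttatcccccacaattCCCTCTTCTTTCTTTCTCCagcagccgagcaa
Fau, chr19:6057907-6057966, plus strand: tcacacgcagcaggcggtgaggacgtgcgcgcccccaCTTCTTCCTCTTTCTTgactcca
Rps25, chr9:44407674-44407733, plus strand: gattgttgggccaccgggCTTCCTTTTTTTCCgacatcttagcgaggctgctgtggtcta
Rps27, chr3:90213629-90213688, minus strand: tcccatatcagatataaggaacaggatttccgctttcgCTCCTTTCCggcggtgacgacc
Rpl7l1, chr17:46782637-46782696, minus strand: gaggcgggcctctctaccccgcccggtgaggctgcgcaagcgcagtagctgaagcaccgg
Rpl10l, chr12:66284382-66284441, minus strand: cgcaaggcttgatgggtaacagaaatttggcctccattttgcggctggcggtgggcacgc
Rpl9, chr5:65391412-65391471, minus strand: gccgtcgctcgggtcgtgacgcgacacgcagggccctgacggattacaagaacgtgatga
Rps3, chr7:99483690-99483749, minus strand: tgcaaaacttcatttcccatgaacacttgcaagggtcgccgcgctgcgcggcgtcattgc

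The annotated starts are approximate, the first transcribed base was not measured, and a tract here is a run of letters and no tested site. The letters CCGGAAG, a core bound by ETS-family factors such as GABPA, were searched on both strands of the 300-base windows (250 before to 50 after the start), apart from the tracts and with no check of overlap. They were found in 40.6% of the 64 members and in 9.85% of the other genes.

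Ribosomal protein mRNAs were among the abundant mRNAs of the oocyte. At day 14 in WT oocytes the member with the highest level was Rpl41, the shortest of the ribosomal proteins, at 1195 FPKM, and the order held Rps29 (1001), Rpl39 (959), Rpl35 (958) and Rps13 (887) next. Among the members with the lowest levels there were Rpl10l (14.2), Rps15a (16.8), Rpl22 (23.5), Rpl7l1 (24.9) and Rpl30 (33.2). With 1 mean per group, no neighbours in this order can be shown to differ. The SD of log2(FPKM + 1) across the 84 members compared, which are not replicates, was 1.28, 1.16, 1.43 and 1.25.

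Members summed to 3.95%, 3.31%, 4.05% and 3.997% of all FPKM in the 4 groups. The lowest of these shares was that of Mtr4-null day 14. Rows of short RNA loci (snoRNA, microRNA and the like) held 2.09%, 5.13%, 1.97% and 13.3% of all FPKM, and with them left out the members' shares were 4.04%, 3.49%, 4.13% and 4.61%. The large subunit genes summed to 1.34, 1.44, 1.37 and 1.37 times the small subunit genes. At least 100 FPKM was reached by 69, 66, 67 and 70 members.

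The order of levels among the 84 members was alike in the WT groups and looser with the Mtr4-null day 21 group. Across genes, which are not independent replicates, Spearman's rho of the levels was 0.98 between WT day 14 and WT day 21, 0.97 between WT and Mtr4-null at day 14, and 0.81 between WT and Mtr4-null at day 21. Genes share the libraries of each group, so these are descriptions. The Mtr4-null day 21 column is by its decimals a mean of 2 libraries, and the part of this in its looser order was not tested.

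**Figure D1:**
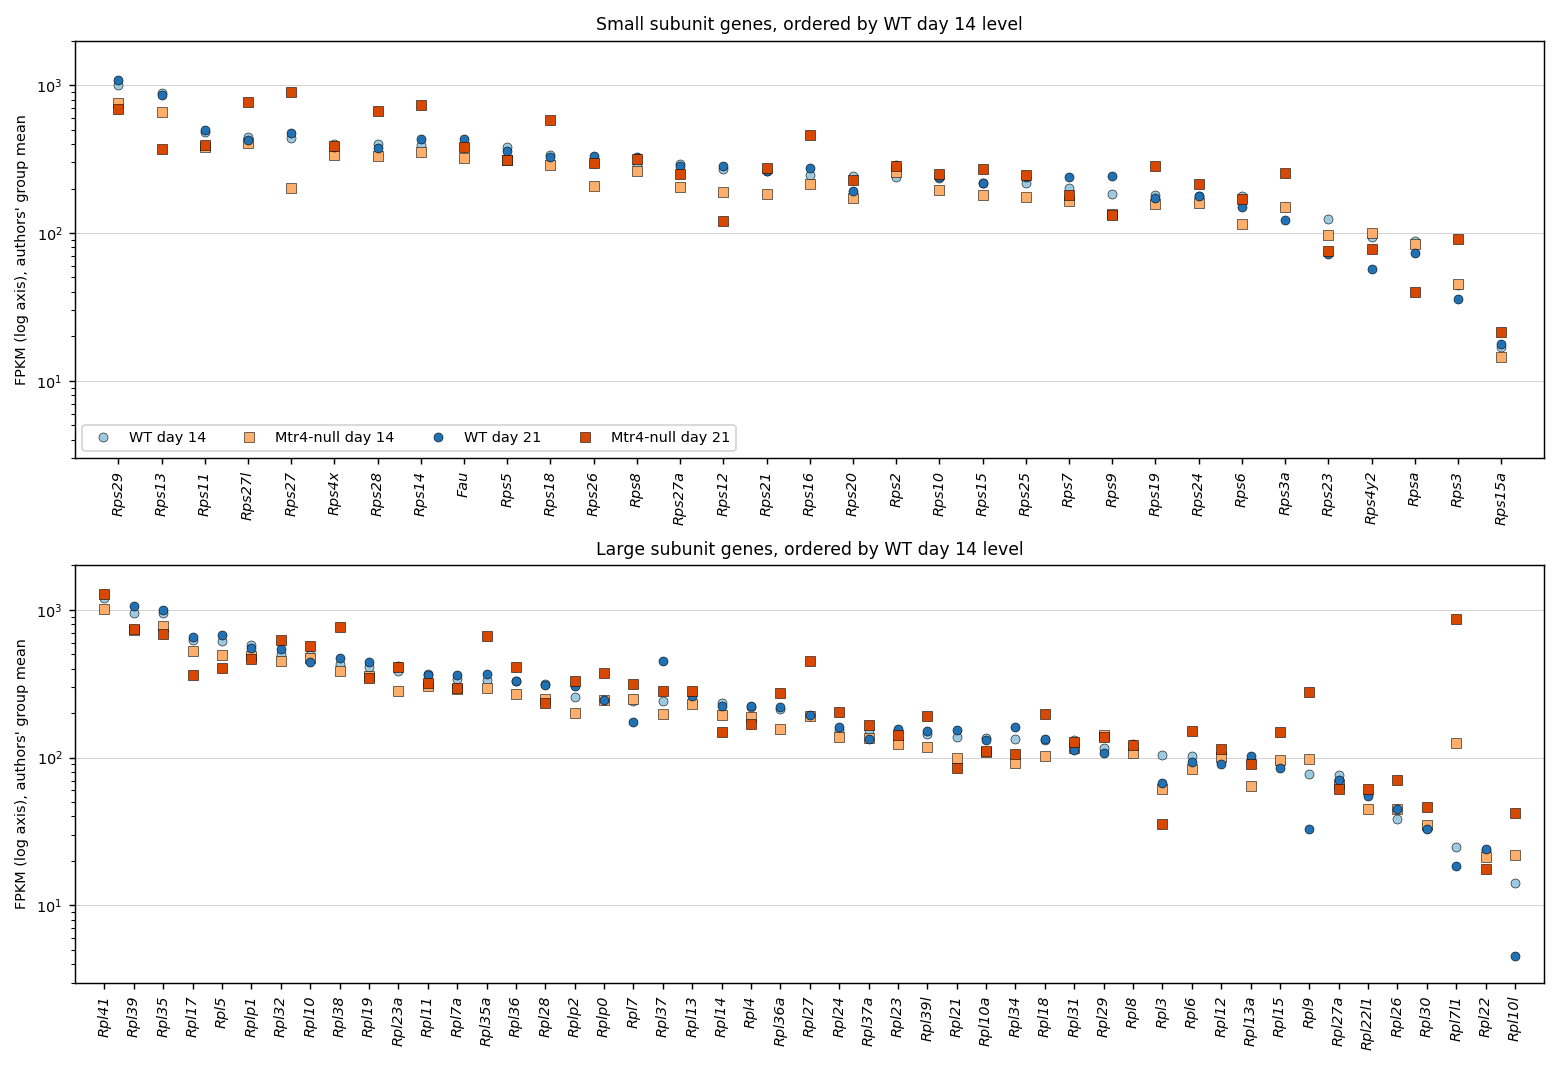
FPKM of compared members in the 4 groups on a log axis, small subunit above and large subunit below, ordered by the WT day 14 level; each symbol is the authors' mean of a group, with no error bar because the table gives none. Pale and dark circles (WT day 14 and day 21) mostly overlie each other, and the dark squares (Mtr4-null day 21) depart furthest at Rpl7l1, Rpl9 and Rpl10l. Rpl3l, listed at 0 in both WT groups, is left off.

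At day 14, Mtr4-null oocytes had slightly lower levels than WT of nearly all ribosomal protein mRNAs. The difference of log2(FPKM + 1) was below 0 for 71 of 84 members, where 45.2% of all genes compared were below 0, and its median was -0.25, where that of all genes was 0.05. By the 2-fold rule 1 member was higher (8.1% of all genes) and 1 lower (1.55% of all genes). Within 0.5 of 0 lay 72 of the 84, and 71.3% of all genes. Between -0.6 and 0 lay 68 of the 84, against 39.4% of all genes. The small subunit genes had a median of -0.27, with 30 of 34 below 0, and the large subunit genes a median of -0.23, with 41 of 50 below 0. Under the other scalings between 69 and 79 of the 84 were below 0, and between 44.3% and 59.3% of all genes. The count of 69 came from quantile normalization, with 59.3% of all genes, and that of 79 from median-of-ratios scaling, with 56.2%. The median relative to all genes, -0.31 as deposited, was -0.09 after quantile normalization.

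Abundant genes outside the family also had a median below 0 at day 14. Those with a mean of at least 100 FPKM (1118 genes, a list chosen after seeing the data) had a median of -0.12, with 754 below 0. Across the 84 members, rho between the day 14 difference and the WT level was -0.31. The part of abundance in the members' difference was not tested.

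The member lower by the 2-fold rule at day 14 was Rps27, a zinc-binding protein of the small subunit, at 437 FPKM in WT and 203 in Mtr4-null oocytes, and at 474 and 902 at day 21. That value depends on a low library. FPKM are given to 6 significant digits, so the digits after the point in 3 times the mean show the size of the lowest library: for Rps27 in Mtr4-null day 14 at least 1 library was below 1 FPKM, and the others averaged between 304.2 and 304.7. In the range of 150 to 1000 FPKM, between 99.1% and 99.6% of a column's rows showed no such sign. With the low library set aside the difference at day 14 was -0.52 in place of -1.10. Rps27 in WT day 21 also had at least 1 library below 10 FPKM while the others averaged between 705.6 and 710.6, and with that library set aside the day 21 difference was 0.34 in place of 0.93. No other member showed a library over 10 times below its group's mean by this reading.

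After Rps27, the members with the largest negative differences at day 14 were Rpl3 and Rps6. Rpl3, a protein beside the peptidyl transferase centre, was at 105, 61.2, 67.7 and 35.4 FPKM, lower in Mtr4-null than in WT at both ages by 0.76 and 0.92 on the log2 scale. Rps6, the small subunit protein phosphorylated by S6 kinase, was at 177, 115, 150 and 169 FPKM, with differences of -0.61 at day 14 and 0.17 at day 21. Also low were Rpl13a (94.5, 63.9, 103 and 90.4 FPKM), Rpl34 (134, 92.6, 162 and 106 FPKM) and Rps21 (261, 182, 265 and 276 FPKM). Of these, Rps21 alone was above its WT level at day 21, with a difference of 0.06.

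**Figure D2:**
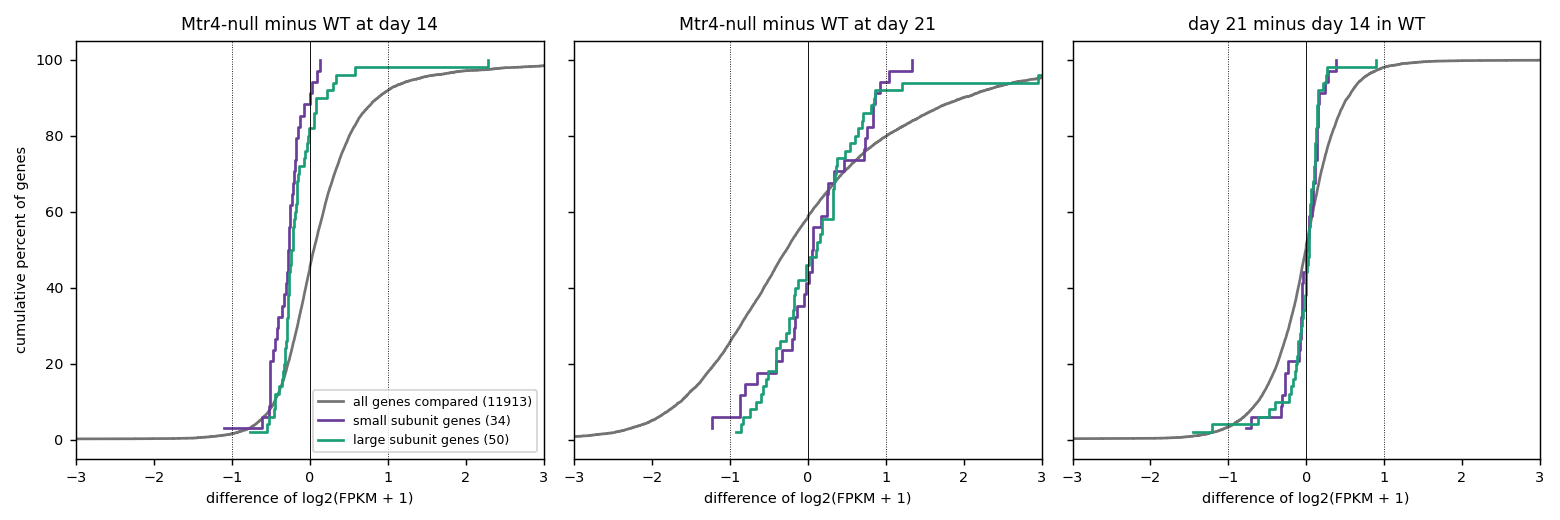
Cumulative percent of genes against the difference of log2(FPKM + 1) for all 11913 genes compared, the 34 small subunit genes and the 50 large subunit genes, with dotted lines at the 2-fold rule; the axis stops at 3, so Rpl7l1 and Rpl9 fall outside the day 21 panel. At day 14 both subunits lie to the left of all genes, at day 21 their middle lies to the right, and between WT ages they rise steeply at 0.

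At day 21 the members had no such common direction as deposited and spread further apart. By the 2-fold rule 6 of 84 members were higher in Mtr4-null oocytes (20.2% of all genes) and 2 were lower (25.7% of all genes). The median was 0.06, where that of all genes was -0.27, and 37 members were below 0, where 58.4% of all genes were. Within 0.5 of 0 lay 48 of the 84, against 29.0% of all genes, and the SD of the differences over members was 0.93, against 0.36 at day 14. All genes also spread further apart, with an SD of 1.66 at day 21 and 0.89 at day 14. The part of the smaller number of libraries in Mtr4-null day 21 (2 by the decimals) in these spreads was not tested. Without the paralogs whose symbols end in l, l1 or y2 the SD over members was 0.67 and 0.22. Set against the median of all genes, the median member was 0.31 lower at day 14 and 0.34 higher at day 21. The day 14 value depended on scaling, as given above, and the day 21 value on the filter, being 0.07 with no filter on low FPKM. The other genes of at least 100 FPKM had a median of -0.51 at day 21, with 791 of 1118 below 0. Scaling moved the members' values at day 21: their median was -0.04 after the columns were set to the same total, 0.21 after median-of-ratios scaling, and 0.45 with 19 members higher and 0 lower after that scaling over genes of at least 1 FPKM in every column, where the median of all genes was 0.05. Under that last scaling 25.4% of all genes were higher and 16.5% lower. It also put 18 of the 37 members below WT above it. Below 0 were then 19 of 84 members and 48.1% of all genes, so most members shared a direction under that scaling. The members below 0 were 31 after plain median-of-ratios scaling (54.9% of all genes), 38 after quantile normalization (58.7%) and 44 with equal totals (60.7%). Thus the sign of small differences at day 21, and whether the members share one, depends on the scaling.

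The 6 members counted as higher at day 21 were Rpl7l1, Rpl9, Rpl10l, Rps3, Rpl27 and Rps3a. Rpl7l1, a relative of Rpl7 associated with early steps of large subunit assembly, was at 24.9, 126, 18.6 and 863 FPKM, 5.06 times higher in Mtr4-null than in WT at day 14 and 46.5 times higher at day 21. It was also the member counted as higher at day 14. Among all rows its level ranked 3611 for WT at day 14 and 110 for Mtr4-null at day 21. In GENCODE it overlaps an antisense gene, Gm26904, and no source used here gives the strand setting of the counts, so the reads of the pair cannot be told apart. The same limit holds for every member that overlaps a gene on the opposite strand, 23 in all with Rpl7l1.

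Rpl9, a large subunit protein near the site where translation factors bind, was at 77.3, 97.9, 32.8 and 278 FPKM, a difference of 0.34 at day 14 and of 3.04 at day 21. Rpl10l, a single-exon retrocopy of the X-linked Rpl10 known from male germ cells, was at 14.2, 21.8, 4.58 and 42.3 FPKM, with differences of 0.58 and 2.95. For this pair the WT level was lower at day 21 than at day 14, by 1.21 for Rpl9 and 1.45 for Rpl10l, and the Mtr4-null level was higher, by 1.49 and 0.92. The day 21 genotype difference and the WT age difference share the WT day 21 column.

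Rps3, at the mRNA entry channel of the small subunit, was at 44.6, 45.4, 35.6 and 91.6 FPKM, and was 2.57 times higher in Mtr4-null oocytes at day 21. Rps3a, on the small subunit platform, was at 149, 150, 123 and 254 FPKM, 2.07 times higher at day 21. Rpl27 was at 192, 190, 193 and 448 FPKM, 2.32 times higher at day 21, with 3 values within 4 FPKM of each other and the Mtr4-null day 21 value apart. The ratios of Rps3 and Rps3a at day 14 were 1.02 and 1.00. Many ribosomal protein genes have processed pseudogene copies of near-identical sequence, and no source used here says how reads shared with them were counted. Among rows named as such copies, Rplp2-ps1 was at 0.804, 64.0, 6.39 and 1013 FPKM and Rpl34-ps1 at 238, 211, 260 and 410 FPKM, while their parents were at 256, 200, 305 and 331 FPKM (Rplp2) and 134, 92.6, 162 and 106 FPKM (Rpl34).

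Lower by the 2-fold rule at day 21 were Rps12 and Rps13. Rps12, on the small subunit head, was at 270, 189, 285 and 121 FPKM, with differences of -0.51 at day 14 and -1.23 at day 21. Rps13, on the platform side of the small subunit, was at 887, 661, 864 and 368 FPKM, with differences of -0.42 and -1.23. Both were lower in Mtr4-null oocytes at each age, and under median-of-ratios scaling over genes of at least 1 FPKM in every column their day 21 differences were -0.84 and -0.84, inside the 2-fold rule. Short of the rule as deposited stood Rpl3 (-0.92), Rps9 (-0.87), Rpsa (-0.87) and Rpl17 (-0.86). Rpsa, the laminin receptor protein of the small subunit, was at 88.7, 83.8, 73.6 and 39.8 FPKM, and was the member counted as lower between the ages in Mtr4-null oocytes, at -1.05 (18.6% of all genes).

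Taken by sign over the ages, 35 of 84 members were below their WT level at day 14 and above it at day 21, a pattern of 6.65% of all genes, and 36 were below it at both ages, as were 38.4% of all genes. Above WT at both ages were 12 members (34.2% of all genes), and 1, Rps2, was above it at day 14 and below it at day 21 (20% of all genes), at 238, 260, 289 and 285 FPKM, differences of 0.13 and -0.02 that both changed sign under median-of-ratios scaling. The count of 35 moved with scaling, to 28 with equal totals, 32 after quantile normalization, 48 after median-of-ratios scaling and 56 after that scaling over genes of at least 1 FPKM in every column. Over these settings the share of all genes with that pattern ran from 5.41% to 13.7%. Across the 84 members the genotype differences at the 2 ages, which share no sample, had a rho of 0.56 and an r of 0.77, and across all 11913 genes a rho of 0.69 and an r of 0.65. Genotype differences were larger by at least 1 at day 21 than at day 14 for 10 members (13.6% of all genes) and smaller by at least 1 for 0 members (22.4% of all genes). The count of 10 was 6 with equal totals (12.1% of all genes), 8 after quantile normalization (16.4%), 22 after median-of-ratios scaling (17.5%) and 27 after that scaling over genes of at least 1 FPKM in every column (20.4%). It includes Rps27, whose value was 0.86 with its low libraries set aside.

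**Figure D3:**
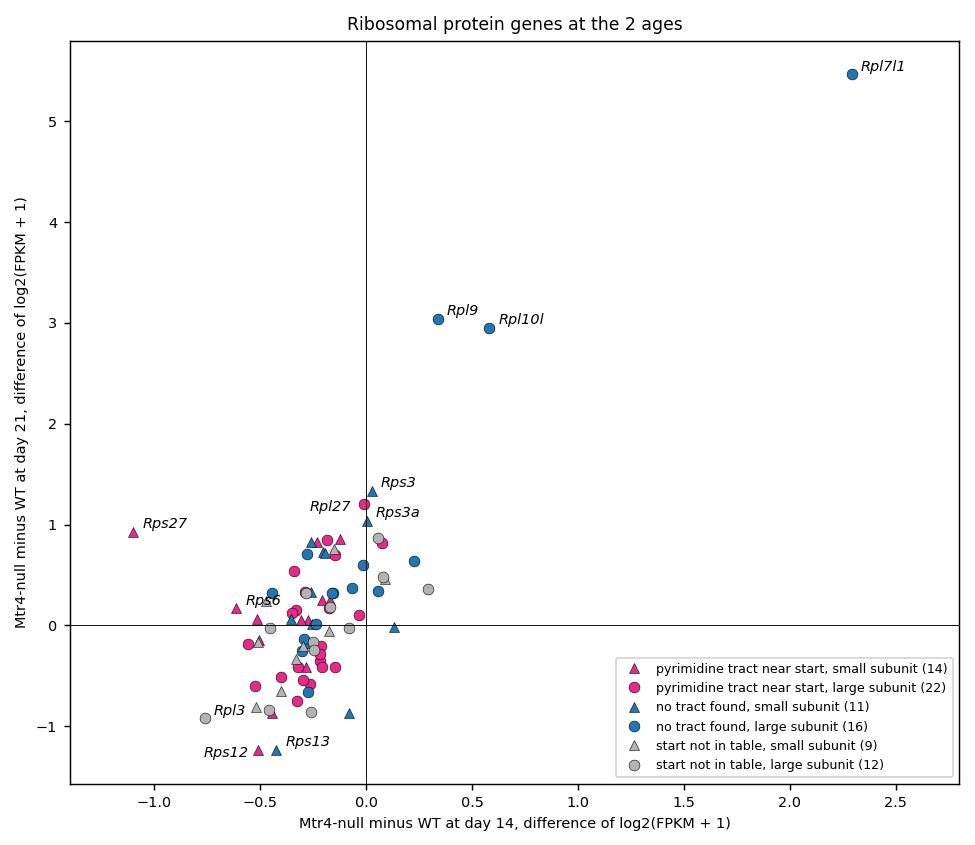
Genotype difference of log2(FPKM + 1) at day 14 (x axis) against day 21 (y axis) for the 84 members, triangles for the small and circles for the large subunit, coloured by whether a pyrimidine tract was found near the start. Members with a tract lie left of 0 on the x axis but for 1, and Rpl7l1, Rpl9 and Rpl10l, without a tract, stand apart at the top.

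By position in the ribosome, the small subunit head, which holds the incoming mRNA and binds initiation factors, had a median of -0.29 at day 14 (13 of 14 below 0) and 0.15 at day 21 (5 of 14 below 0). The body and platform had a median of -0.27 at day 14 (16 of 18 below 0) and -0.00 at day 21 (9 of 18 below 0). At day 21 the head held both Rps3 (1.34) and Rps12 (-1.23), and the body both Rps3a (1.04) and Rps13 (-1.23).

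The large subunit's 5S particle, in which Rpl5 and Rpl11 bind 5S rRNA and which can also bind MDM2, had lower values in Mtr4-null oocytes at both ages as deposited. Rpl5 was at 620, 494, 676 and 402 FPKM, with differences of -0.32 and -0.75. Rpl11 was at 367, 303, 365 and 322 FPKM, with differences of -0.27 and -0.18. Neither reached the 2-fold rule, and Rpl11 was at 0.21 at day 21 under median-of-ratios scaling over genes of at least 1 FPKM in every column.

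The P stalk recruits the GTPase factors of translation. Its scaffold Rplp0 was at 247, 244, 245 and 372 FPKM, a difference of -0.02 at day 14 and 0.60 at day 21. Rplp1 was at 581, 490, 549 and 462 FPKM, lower at both ages by 0.25, though at 0.15 at day 21 under that scaling. Its partner in the stalk dimers, Rplp2, was at 256, 200, 305 and 331 FPKM, with differences of -0.35 and 0.12. Rpl12, at the stalk base, was at 96.8, 100, 90.1 and 115 FPKM, with differences of 0.05 and 0.35. The stalk thus held members on either side of 0 at day 21, with a median of 0.23.

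Around the tunnel through which the nascent chain leaves, 7 of 8 members were below 0 at day 14 (median -0.24) and 6 of 8 at day 21 (median -0.38). Under median-of-ratios scaling over genes of at least 1 FPKM in every column 4 of 8 were below 0 at day 21 (median 0.01), Rpl19 and Rpl23a being above it. Rpl17 was at 629, 525, 654 and 360 FPKM, Rpl39, which lines the tunnel, at 959, 726, 1056 and 739 FPKM, and Rpl35 at 958, 779, 996 and 683 FPKM. Rpl19 (412, 354, 444 and 346 FPKM), Rpl4 (218, 189, 225 and 169 FPKM) and Rpl23a (385, 281, 418 and 411 FPKM) were also below WT at both ages as deposited. Rpl26 (38.5, 45.1, 44.7 and 70.0 FPKM) was above WT at both ages, and Rpl31 (131, 116, 112 and 127 FPKM) at day 21 only. The other 32 large subunit genes had a median of -0.22 at day 14 and 0.14 at day 21.

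Ubiquitin is made in part as a fusion to ribosomal proteins. The small subunit fusion Rps27a was at 294, 206, 284 and 253 FPKM, and Fau, a fusion of eS30 to a ubiquitin-like protein, at 384, 322, 430 and 380 FPKM. Both were below WT at each age, by 0.51 and 0.17 for Rps27a and by 0.25 and 0.18 for Fau, and at day 21 both were above it under the scaling just named, by 0.22 and 0.21.

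The paralogs whose symbols end in l, l1 or y2 resemble a partner gene, and some of them can stand in for it in some tissues. Of the 6 compared, all were above WT at day 21, with a median of 0.66, and 3 were above it at day 14. Rpl39l, known from spermatogenesis, was at 145, 119, 150 and 190 FPKM, or 15.1%, 16.3%, 14.2% and 25.7% of the level of Rpl39. Rps27l, known as a p53 target, was at 444, 408, 427 and 774 FPKM, or 102% of Rps27 in WT oocytes at day 14 and 90.1% at day 21. With the low library of Rps27 set aside the day 21 share was between 60.1% and 60.5%. Rpl22l1 was at 56.9, 45.1, 54.8 and 61.1 FPKM, above its partner Rpl22 in every group by a factor of between 2.13 and 3.45. Rpl22 was at 23.5, 21.2, 24.0 and 17.7 FPKM.

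Rpl7l1 was at 10.3%, 50.3%, 10.7% and 273% of Rpl7, which was at 241, 250, 173 and 316 FPKM. Its level thus passed that of its partner only in Mtr4-null day 21. Rpl10l was at 2.86%, 4.59%, 1.04% and 7.39% of Rpl10 (498, 475, 442 and 572 FPKM). Rps4y2 was at 93.4, 99.2, 56.9 and 78.5 FPKM, between 14.9% and 29.6% of Rps4x, and may share reads with it. Rpl3l, the striated muscle copy of Rpl3, was listed at 0 in both WT groups and at 1.04 FPKM in both Mtr4-null groups, and was not compared. Without the like-paralogs the median of the members was -0.26 at day 14 and 0.04 at day 21.

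By the sequence near the start, at day 14 35 of the 36 with a tract were below WT (median -0.28), the exception being Rpl15 at 0.07, and 19 of the 27 compared without one (median -0.19). At day 21 the medians were 0.05 and 0.33, with 17 of 36 and 7 of 27 below 0, and the SD over members was 0.57 with a tract and 1.34 without. With Rpl7l1, Rpl9 and Rpl10l set aside the SD without a tract was 0.60 at day 21 and 0.17 at day 14, where that with a tract was 0.21, so the spread did not separate the groups beyond those 3 members. Of the 6 members counted as higher at day 21, 5 had no tract in their window. The exception was Rpl27, whose tract lies at the far upstream edge of its window. Among the members compared 36 had a tract and 27 had none, and of other genes 21.5% had one, so little can be read from 6 members. Between the ages in WT oocytes the members with a tract had an SD of 0.13 and a median of 0.07, and those without an SD of 0.44 (0.29 with the same 3 set aside) and a median of -0.06. These comparisons were made after seeing the data and were not tested.

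Among the members, 30 carry 1 or more annotated snoRNAs in the gene on its strand. At day 14 these and the 54 others had medians of -0.26 and -0.25. At day 21 the medians were -0.15 and 0.21, with 19 of 30 and 18 of 54 below WT. The other coding genes that carry a snoRNA (160 genes) had medians of 0.06 and -0.40. Both members lower by the 2-fold rule at day 21, Rps12 and Rps13, carry a snoRNA, as do Rps3 and Rps3a among the 6 higher.

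Of 58 snoRNA loci annotated in these genes, 31 had a row in the table, 14 of them listed at 0 in every group. The 11 named Snora, of the H/ACA class that guides pseudouridylation, were each above 0 in some group. Here any difference was counted, not only those past the 2-fold rule. Above WT in Mtr4-null oocytes were 9 of 11 at day 14 and 9 of 11 at day 21. The other 20 rows include all 14 listed at 0. Of the 20, 4 were above and 1 below WT at day 14, and 3 above and 1 below at day 21. Of the 11913 genes compared, 6501 were above WT and 45.2% below it at day 14, and 4897 and 58.4% at day 21. Those genes passed the filter on mean FPKM, which was not applied to these rows. Snora3, in Rpl27a, was listed at 0 in both WT groups and was at 114 and 248 FPKM in Mtr4-null day 14 and day 21, while Rpl27a was at 76.9, 66.1, 70.1 and 61.0 FPKM. Snord73a, in Rps3a, was listed at 0 in both WT groups and was at 151 and 1619 FPKM in the Mtr4-null groups. Snord4a, in Rpl23a, went the other way at day 21, at 323, 745, 198 and 0 FPKM. These loci are between 65 and 149 bases long, so a few reads give a large FPKM, and whether such reads came from snoRNA, from an intron or from an extended transcript was not tested.

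Between day 14 and day 21 in WT oocytes the members' levels differed little. By the 2-fold rule 0 were higher (2.02% of all genes) and 2, Rpl10l and Rpl9, were lower (3.32% of all genes), and 78 of 84 lay within 0.5 of 0 (74.8% of all genes). The median was 0.03, and that of all genes -0.00. Outside 0.5 there were also Rps23 (125 to 72.5 FPKM, -0.78), Rps4y2 (93.4 to 56.9 FPKM, -0.71), Rpl3 (105 to 67.7 FPKM, -0.62) and Rpl37 (241 to 448 FPKM, 0.89). Rpl37, a zinc-binding large subunit protein, was the member with the largest positive difference, and in Mtr4-null oocytes it stood at 199 and 283 FPKM. In Mtr4-null oocytes 8 members were higher at day 21 than at day 14 (9.08% of all genes), among them Rps27, Rpl7l1 and Rpl9.

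Genes that work beside the members were examined as lists. The other 19 mRNAs known to carry TOP motifs, which encode elongation and initiation factors and the poly(A)-binding protein, had a median of -0.03 at day 14, with 0 higher and 0 lower, and of -0.68 at day 21, with 3 higher and 4 lower. Counts of this and the next lists stand against 8.1% of all genes higher and 1.55% lower at day 14, and 20.2% and 25.7% at day 21. Eef1a1, the elongation factor that delivers aminoacyl-tRNA, was at 751, 687, 539 and 297 FPKM. Higher at day 21 were Pabpc1 (13.9, 17.0, 9.32 and 28.1 FPKM), Eef1g and Eef1b2, and lower Eef1d (94.3, 74.3, 137 and 54.6 FPKM), Hnrnpa1, Eif4b and Eif3e. Thus at day 21 the median of this list lay below that of all genes and the median of the ribosomal proteins above it. The scaffold protein of the small subunit encoded by Gnb2l1 was at 83.7, 82.0, 77.7 and 151 FPKM.

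The 76 mitochondrial ribosomal protein genes, which serve the organelle's own ribosome, had medians of -0.14 at day 14 and -0.26 at day 21, with 4 higher and 0 lower at day 14 and 14 higher (18.4% of the list) and 8 lower (10.5%) at day 21. Mrpl43 (24.9, 71.1, 16.8 and 478 FPKM) and Mrpl51 (25.8, 68.6, 33.0 and 346 FPKM) were the members of that list with the largest positive differences at day 21. Among 31 ribosome assembly factors and chaperones 1 was higher and 0 lower at day 14. At day 21, 5 were higher (16.1%) and 7 lower (22.6%), shares near those of all genes for a list of this size. Nip7, a factor of 60S assembly, was at 38.6, 510, 46.7 and 4602 FPKM, and was the factor higher at day 14. Dkc1, the pseudouridine synthase of H/ACA particles, was at 68.3, 40.8, 82.1 and 26.0 FPKM, and Ltv1, an export factor of the small subunit, at 79.4, 66.0, 74.0 and 19.4 FPKM.

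Of 15 regulators of ribosomal protein mRNA compared, 0 were higher and 0 lower at day 14, and 3 were higher (20% of the list) and 4 lower (26.7%) at day 21, shares near those of all genes. Mtor, the kinase behind TOP mRNA translation, was at 5.24, 5.68, 5.27 and 1.47 FPKM, and Larp1, which binds the TOP motif, at 1.47, 1.76, 1.04 and 2.198 FPKM. Gabpa, an ETS factor, was at 3.91, 7.40, 0.977 and 9.54 FPKM. Lin28a, which binds ribosomal protein mRNAs among others, was at 8.28, 9.09, 8.67 and 2.19 FPKM. Most of these levels are a few FPKM, where 1 mean per group gives little precision.

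**Figure D4:**
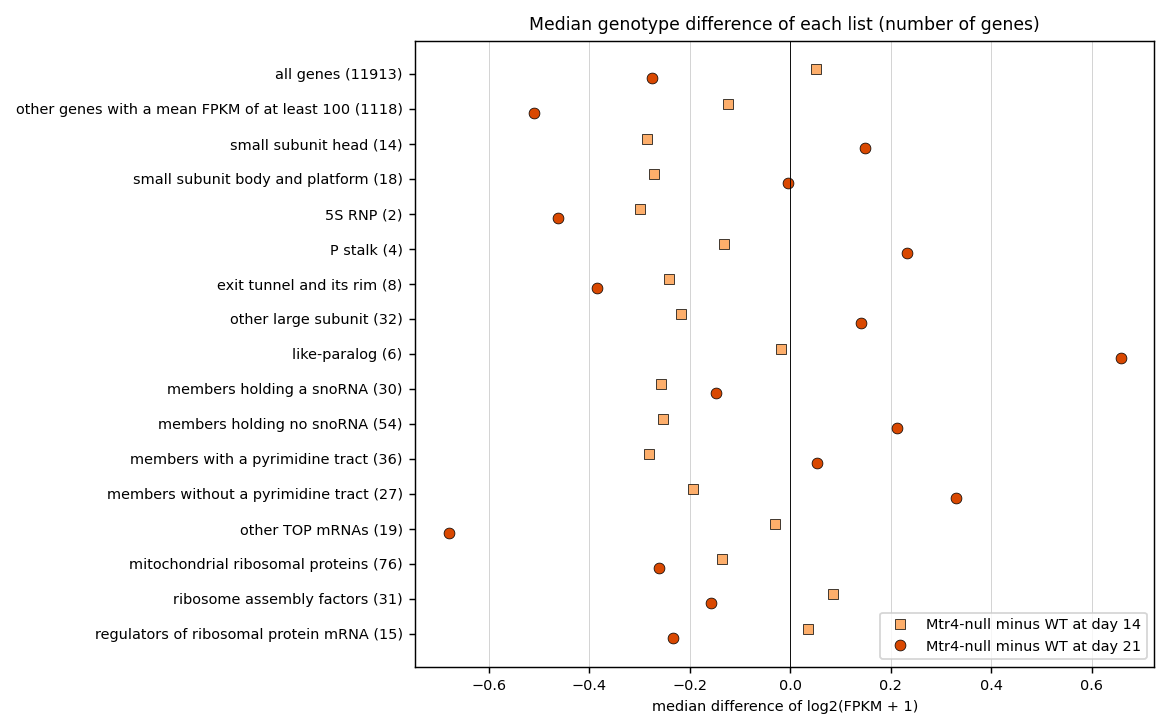
Median difference of log2(FPKM + 1) between Mtr4-null and WT, squares for day 14 and circles for day 21, for all genes, abundant other genes, groups of ribosomal protein genes and the lists beside them, with the number of genes in brackets and no error bars, since the table gives 1 mean per group. At day 21 the 5S particle (-0.46) and exit tunnel (-0.38) lie left of 0, the like-paralogs (0.66) lie right of it, and the other TOP mRNAs (-0.68) are the list furthest left.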

How the data were processed

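The authors deposited 1 table of FPKM values, 23235 genes in 4 columns, each a mean of a group (12 samples in the labels, 3 in each of 4 groups). The submitters' processing notes name TopHat2 2.1.1, Cufflinks 2.2.1 and the build mm9, with no role for each. The decimals of 3 columns show means of 3 libraries and those of Mtr4-null day 21 a mean of 2. No source used here gives read depth, so no interval was computed. The deposited totals ran from 595721 to 649983 FPKM. Differences were taken on log2(FPKM + 1) over the 11913 genes whose mean over the columns reached 1 FPKM. This scale understates changes of low genes. The code was tested on simulated data. Tests planned for single libraries could not be run on means. Members, lists and comparisons were chosen with earlier results of these data known. All members could be named; in full those at least 2-fold apart, the highest, lowest and most different of each subunit, paralogs, and the 5S, stalk and tunnel groups; of other lists, those 2-fold apart or most abundant. Sequences are from RefSeq (GRCm38.p6) and gene structure from GENCODE vM21 (GRCm38). Their coordinates are not in mm9. Alternatives were other pseudocounts, filters and scalings. Python 3.11.15, pandas 2.3.3 and numpy 2.4.6 were used. Some genes of the family and of the lists are not reported here by name and are left off the plot of levels, though they stay in the counts and medians.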

Additional observations from a re-analysis of the deposited data

Results flagged for a closer look

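In 5 members the genotype difference of log2(FPKM + 1) was below 0 at day 14 and above 0 at day 21, and the day 21 difference minus the day 14 difference was at least 1. These values were 2.03 for Rps27, 1.22 for Rpl27, 1.09 for Rps28, 1.06 for Rps18 and 1.04 for Rpl35a. Of all genes, 6.65% had this pattern of signs and 13.6% had a value of at least 1, and the share meeting both is not given here. The difference between the ages was not tested, since each group has 1 mean. The day 14 side was small for Rpl27 (-0.01), Rpl35a (-0.19), Rps18 (-0.23) and Rps28 (-0.26). Rps28 was at 400.5, 334, 375 and 666.9 FPKM, Rps18 at 339, 289, 326 and 581 FPKM, and Rpl35a at 337, 296, 370.5 and 669 FPKM. Each of these overlaps a gene on the opposite strand in GENCODE, whose reads cannot be told apart from its own. The value of Rps27 rests on a low library in Mtr4-null day 14 and another in WT day 21; without them its differences were -0.52 and 0.34.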

How the results depend on the processing

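Of the 38 single-gene differences of named members (19 genes at both ages), 11 over all settings changed sign, in 6 genes (Rps2, Rps3, Rps3a, Rps4y2, Rpl13a and Rpl27) whose differences as deposited were at most 0.19 from 0: 5 under median-of-ratios scaling, 4 under that scaling over genes of at least 1 FPKM in every column and 2 under quantile normalization. None of these reached the 2-fold rule. The 19 genes were those 2-fold apart or with the largest differences of each subunit, so the count does not describe the other members. Members outside the 19 also changed sign at day 21, among them Rpl19. Its difference was -0.36 as deposited and above 0 under median-of-ratios scaling over genes of at least 1 FPKM in every column. In order, the contrasts below are genotype at day 14, genotype at day 21, WT age, Mtr4-null age and the day 21 minus the day 14 genotype difference. No filter on low FPKM gave 2 members higher at day 14 (4.3% of all genes), where 1 was higher with the filter. It gave members' medians relative to all genes of 0.069 at day 21 (0.34), 0.29 for Mtr4-null age and 0.35 for the last contrast. A minimum of 5 FPKM gave 0.48 at day 21. Median-of-ratios scaling gave medians of -0.40, 0.21, 0.62 (Mtr4-null age) and 0.65 (last), with 19 higher and 0 lower for Mtr4-null age and 22 higher for the last (17.5% of all genes). Scaling also moved the median of all genes for Mtr4-null age, from -0.30 as deposited to -0.04. Shares of all genes for the counts of Mtr4-null age under the scalings are not given here. The same scaling over genes of at least 1 FPKM in every column, chosen after seeing the data, gave 19 higher and 0 lower at day 21 (6 and 2 as deposited), with a median of 0.45, 26 higher and 0 lower for Mtr4-null age with a median of 0.76, and 27 higher for the last with a median of 0.81. Under it 25.4% of all genes were higher and 16.5% lower at day 21, and 20.4% higher for the last. The median of all genes for Mtr4-null age was then 0.07. Quantile normalization gave relative medians of -0.091 at day 14, 0.43 for Mtr4-null age and 0.46 for the last, and turned the WT age medians to -0.0036 and, relative, -0.0038. Equal totals turned the day 21 median to -0.041 and gave 5 higher with a median of 0.19 for Mtr4-null age, where the median of all genes was -0.41. They gave 6 higher with 0.24 for the last (12.1% of all genes). Without like-paralogs, also chosen after seeing the data, 0 members were higher at day 14 and 1 was lower with WT age. The members' shares of FPKM without the 20 most abundant other rows were 4.50%, 3.73%, 4.55% and 4.70%, and 4.61% in Mtr4-null day 21 without short RNA loci. The cause of these shifts was not tested. No paired analysis was possible because the columns are means that carry no replicate number, and leaving out a replicate could not be run for the same reason. Depth is unknown and limits the low members, such as Rpl10l and Rpl3l.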
